A study of Rhagoletis pomonella with 50 samples.

Results

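The 100 features described here were higher in apple-fed than in hawthorn-fed pupae of the fly Rhagoletis pomonella at every month sampled and were ranked by their smallest monthly difference, out of 29399 features in the deposited tables. They were selected on the measured values themselves. For each feature and month, a difference d was taken as the log2 of the apple mean minus the log2 of the hawthorn mean, in CPM (the expected count of a feature per 1000000 expected counts of its library) with 0.5 added. Of the 9579 features with a mean of at least 2 CPM, 2025 had d above 0 at all 5 months, and the 100 with the largest minimum d were taken. A feature is a gene model of the annotation used by the authors, and the files do not pair the identifiers with gene names. No gene identifier (0) and no transcript identifier (0) was found in RefSeq's gene table for the species, whose assembly is a different one. The members are therefore described by their identifiers, and no function is given to any of them.

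RNA was sequenced from the central nervous system (CNS) of pupae after 2, 3, 4, 5 and 6 months at 3.5 °C and 95% relative humidity. The 25 apple libraries and the 25 hawthorn libraries came from larvae in field-collected fruit of a single locality, with 5 pools of 10 CNS at each month, after 10 days at 24 °C in which the insects formed pupae and entered diapause. Both hosts had the same temperatures and ages in the cold, and each library mixed 10 individuals, so the spread between libraries is a spread between pools. With no gene names, the labelled tissue could not be checked against markers of neurons or glia.

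Rhagoletis pomonella, the apple maggot fly, lived on native hawthorn before part of the species shifted to introduced apple, whose fruits ripen earlier. The host populations differ in the timing of diapause, the programmed arrest in which the pupae pass the winter. Apple-fed pupae thus face a longer warm period before winter, and development in the brain resumes only as diapause ends. In bulk RNA, fewer cells of a type and less RNA per cell cannot be told apart.

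The libraries held 8718271 to 30540959 expected counts each, with a median of 14615586. Hawthorn replicates 2 and 4 at 4 months stood apart from the other 48 libraries and were left out by the rule. Their scaling factors by TMM (trimmed mean of M values) were 0.651 and 0.728, and the slopes of their feature levels on log transcript length were -0.270 and -0.272, against -0.133 to 0.157 in the others. At each of 2, 3, 4 and 5 months, apple and hawthorn libraries ran in different sequencing lanes, so host and lane cannot be told apart there. Replicates 3, 4 and 5 of both hosts at 6 months carried a single index and all other libraries dual indexes.

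The median d of the members was 0.73 at 2 months, 0.65 at 3 months, 0.56 at 4 months, 0.57 at 5 months and 0.72 at 6 months. A d of 1 is a 2-fold higher mean of CPM + 0.5 in apple. The values chose the members, so these are a description with no test. Averaged over the months, d ran from 0.43 to 1.98 with a median of 0.67. A mean d of at least 1 was found in 8 members, beside 0.146% of all features in either direction. A d of at least 1 was reached in some month by 44 members, beside 5.88% of all features in either direction. At 6 months 25 members and 111 of all 9579 features had a d of at least 1. At 4 months 8 members and 143 of all features did. The smallest of a member's monthly values fell most often at 5 months (35 members, with 54.6% of all 9579 features) or 4 months (32 members, with 16% of all). The largest fell most often at 2 months (38 members, with 42.4% of all) or 6 months (29 members, with 21.1% of all).

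The height of d depended on the scale. With CPM from file totals, the median d over all 9579 features was 0.28, 0.10, 0.13, -0.07 and 0.20 at 2, 3, 4, 5 and 6 months, and its mean over the months had a median of 0.13. TMM scaling brought that last median to 0.01. On the TMM scale the members' median d was 0.45, 0.57, 0.42, 0.64 and 0.51 at 2, 3, 4, 5 and 6 months, so the order of the months depended on the scale. On this scale the smallest d fell most often at 4 months (35 members, with 20.7% of all features) or 2 months (30 members, with 23.7% of all), and the largest at 5 months (44 members, with 30.1% of all). Their median mean d was 0.54, and all 100 still had d above 0 at each of the 5 months, the lowest being 0.06. TMM evened the numbers of features that were higher and lower in apple at all 5 months. On file totals 2025 were higher and 332 lower. On the TMM scale 1074 were higher and 1118 lower. The plot of d by month shows the members above the body of all features on both scales.

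**Figure D1:**
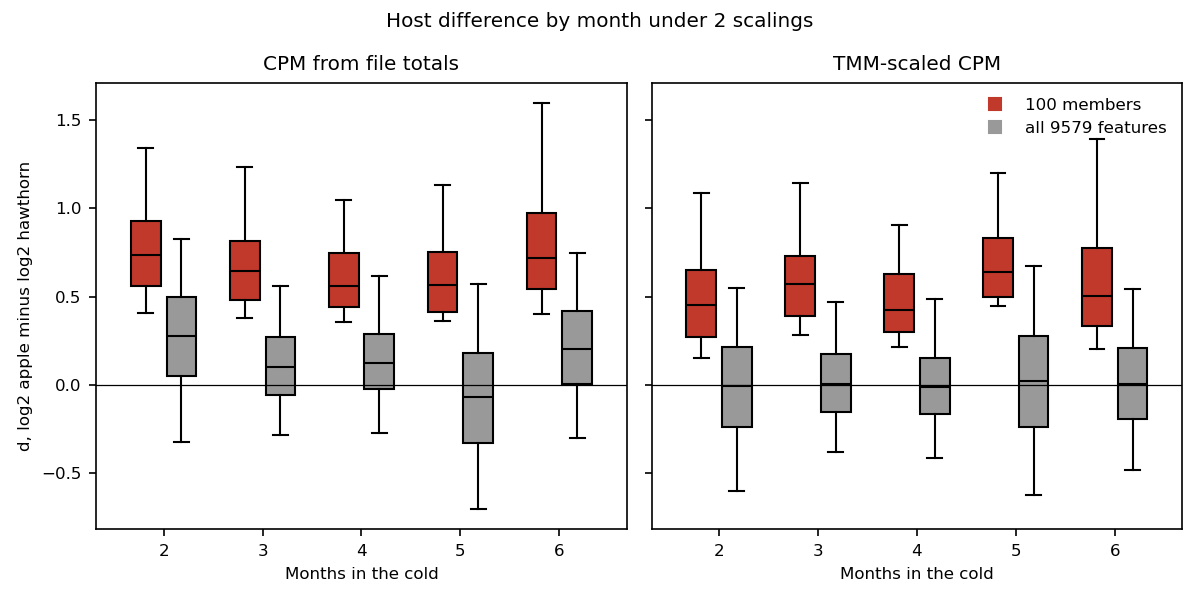
Host difference d (log2 apple minus log2 hawthorn, means of CPM + 0.5) at 2 to 6 months for the 100 members (red) and all 9579 features (grey), with CPM from file totals on the left and TMM-scaled CPM on the right. Boxes span the quartiles with the median as a line and whiskers reach the 5th and 95th percentiles; the median of all features lies at 0.28 at 2 months and -0.07 at 5 months on file totals, and near 0 at each month after TMM scaling.

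The member with the largest minimum d was gene13968, whose smallest difference was 1.03 at 4 months and whose largest was 1.66 at 6 months. At 6 months gene13968 had 39.6, 15.7, 53.8, 41.2 and 47.2 CPM in the apple libraries, against 8.88, 8.13, 2.50, 19.7 and 21.4 CPM in the hawthorn libraries. At 4 months it had 23.5, 43.7, 27.8, 4.93 and 17.8 CPM in apple and 16.5, 9.65 and 7.60 CPM in the 3 hawthorn libraries used. At 2 months the values were 23.1, 21.2, 22.2, 30.4 and 11.0 CPM in apple, against 7.25, 9.67, 10.7, 7.55 and 5.83 CPM in hawthorn. The hosts did not overlap at 2 months, which for this feature was the only such month. At 3, 4, 5 and 6 months single apple libraries lay among or below the hawthorn values, although the apple mean was more than 2-fold higher at each month.

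The next member, gene2952, was scarce, with a mean of 2.84 CPM, and its minimum d of 0.87 fell at 5 months. At 3 months it had 5.14, 5.72, 3.75, 3.36 and 3.00 CPM in apple, against 1.30, 0.555, 1.13, 1.34 and 0.578 CPM in hawthorn. At 6 months it had 4.24, 2.17, 2.71, 2.37 and 3.51 CPM in apple, against 0.493, 1.12, 1.29, 1.09 and 0.307 CPM in hawthorn. The hosts were separate at both of these months. At 2 months the apple libraries of gene2952 had 6.99, 7.70, 4.17, 2.86 and 8.01 CPM, and the hawthorn libraries had 0.643, 1.08, 0.553, 0.276 and 6.54 CPM. The fifth hawthorn library there lay within the apple range, while the other 4 were below every apple library.

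The largest mean d, 1.98, belonged to gene19551. In apple at 5 months it had 9.43, 2.94, 12.8, 6.42 and 2.37 CPM, and in hawthorn 1.25, 1.03, 1.34, 1.17 and 0.143 CPM. At 6 months it had 7.84, 5.92, 10.2, 6.41 and 14.9 CPM in apple, against 1.97, 0.298, 0.939, 1.16 and 0.537 CPM in hawthorn. The apple and hawthorn libraries of gene19551 did not overlap at 2, 3, 5 or 6 months. At 4 months, its month of smallest d (0.84), the apple values of 4.14, 2.36, 4.22, 8.48 and 6.88 CPM overlapped the hawthorn values of 0.952, 4.06 and 3.10 CPM.

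A longer and steadier member, gene9926, showed a smaller difference with a tighter spread. At 4 months its mean was 24.3 ± 4.74 CPM in the 5 apple libraries, against 11.8 ± 1.15 CPM in the 3 hawthorn libraries (SD). At 3 months, its month of smallest difference with a d of 0.35, it had 13.4, 14.3, 19.3, 14.9 and 13.0 CPM in apple, against 10.1, 10.9, 13.8, 13.4 and 10.3 CPM in hawthorn. Its hawthorn libraries of all months lay between 9.76 and 16.4 CPM, and its apple libraries between 13.0 and 32.3 CPM. At 2 and 4 months every apple library was above every hawthorn library for gene9926.

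**Figure D2:**
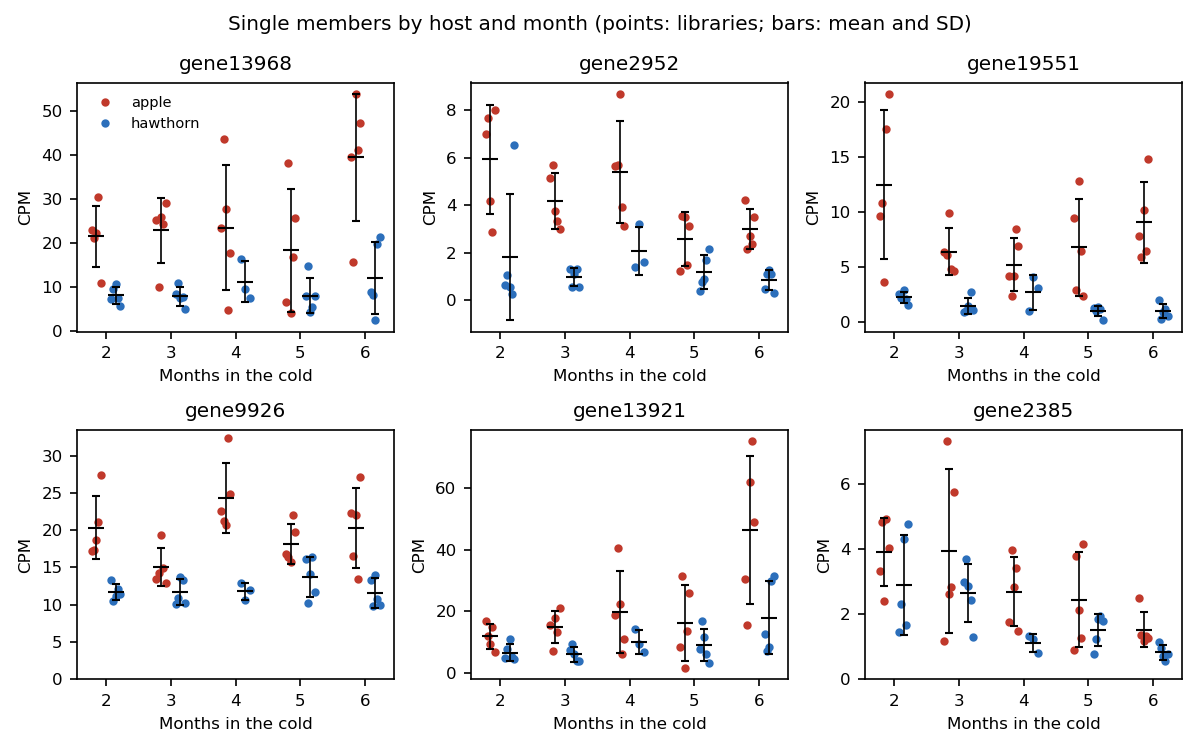
CPM of 6 members by month, each point a library, with apple (red) left of hawthorn (blue) and bars for the mean and SD of each group; the 2 libraries left out by the rule are not drawn. For gene19551 the apple libraries lie above the hawthorn libraries at 2, 3, 5 and 6 months, while gene13968 and gene13921 have apple libraries below the highest hawthorn library at 4 and 5 months.

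At 2 months, 43 members had every apple library above every hawthorn library, beside 21.6% of all 9579 features. The numbers of such members were 27 at 3 months (4.15% of all features), 16 at 4 months (6.24%), 10 at 5 months (2.23%) and 21 at 6 months (6.3%). The rule used these libraries, so nothing is read from the difference from the background. On the TMM scale 14 members were without overlap at 2 months (4.66% of all features), 19 at 3 months (2.19%), 12 at 4 months (2.71%), 21 at 5 months (2.98%) and 13 at 6 months (2.1%). No member (0) was without overlap at all 5 months. The 3 members without overlap in 4 of the 5 months, gene19551, gene12987 and gene4787, were named after this count was seen. Another 11 members were without overlap in 3 of the months, 19 in 2, 34 in 1 and 33 in none. Of all features, 0.094% were so in 4 of the months, 1.1% in 3, 6.52% in 2, 23.8% in 1 and 68.5% in none. At each of the 5 months most members had a higher mean in apple with some libraries of the hosts overlapping.

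The rank in the list was a matter of small differences at its lower end. The last members inside, gene1694 and gene10069, had a minimum d of 0.3429 and 0.3424, and the first features outside, gene12915 and gene12473, had 0.3424 and 0.3401. The middle of the list, at gene11507 and gene11412, stood at a minimum d of 0.42. With TMM scaling of the CPM, 66 of the 100 would again be chosen, and with group medians in place of group means 48 would be. For gene10069 the minimum d was -0.13 with group medians, and -0.16 when apple replicate 5 at 5 months was left out. Leaving out each of the 48 libraries in turn kept between 73 and 100 of the members, and 19 members were chosen in all 48 lists.

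The members were spread over a wide range of levels. Per length, the highest was gene4276 with 1772 TPM (transcripts per 1000000, which corrects for length), a short transcript of 478 bp, and the lowest was gene2952 with 0.504 TPM. In CPM, gene4276 averaged 848 ± 292 CPM in the 25 apple libraries and 414 ± 175 CPM in the 23 hawthorn libraries used (SD). Its apple libraries ran from 269 CPM over a median of 808 CPM to 1490 CPM, and its hawthorn libraries from 146 CPM over a median of 381 CPM to 935 CPM. The second in CPM, gene11122, averaged 166 ± 50.7 CPM in apple and 103 ± 36.3 CPM in hawthorn. The ranges of both members overlapped between the hosts, although each had the higher mean in apple at every month.

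The scarcest members, gene12699 and gene25292, averaged 2.04 and 2.13 CPM. For gene12699 the apple libraries ran from 1.21 over a median of 1.74 to 6.17 CPM and the hawthorn libraries from 0.5 over a median of 1.34 to 4.45 CPM. The minimum d of gene12699, 0.38, was -0.07 when apple replicate 5 at 2 months was left out. That of gene25292, 0.39, was -0.07 with all 50 libraries in the means. At this level a few libraries set the order of the means.

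The widest spread within groups was that of gene2772, with an SD of 1.0 on the log2 scale, and of gene3834, with 0.98. At 2 months gene2772 had 0.849, 8.84, 8.10, 8.93 and 0.594 CPM in apple, against 0.911, 0.691, 0.775, 0.621 and 1.05 CPM in hawthorn. At 3 months it had 8.91, 2.09, 0.723, 0.331 and 1.07 CPM in apple, against 0.682, 2.31, 1.08, 0.644 and 2.38 CPM in hawthorn. The apple libraries of gene2772 thus fell into high and low values at 2 months. At 3 months only the apple library with 8.91 CPM was high, and the other apple libraries lay among or below the hawthorn values. The minimum d of gene2772, 0.49, was -0.30 when apple replicate 1 at 3 months was left out. The steadiest members were gene2603 and gene3530, with an SD within groups of 0.17 and 0.22. Over all months gene2603 averaged 140 ± 29.9 CPM in the 25 apple libraries and 101 ± 13.1 CPM in the 23 hawthorn libraries.

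The members were less abundant and more variable than the features they were drawn from. Their median level was 6.23 TPM, against 8.64 TPM over the 9579 features. Of the members, 62 averaged under 10 CPM and 3 over 100 CPM, against 42.0% and 11.4% of all features. The median SD within groups, on the log2 scale, was 0.44 among members and 0.28 among all features. The rule used the group means, so level and spread were not independent of it. The mean d of a member was 0.82 to 3.01 times its own SD within groups, with a median of 1.59.

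Transcript length, number of transcripts and share of non-whole counts lay near those of all features. The median transcript length was 1529 bp among members and 1843 bp among all features, with gene9926 (6948 bp) and gene6950 (6684 bp) the longest members and gene12256 (322 bp) and gene25419 (325 bp) the shortest. More than 1 transcript was listed for 29 members, against 32.7% of all features, with 6 transcripts for gene6950. For gene12818, gene11122 and another member 5 were listed. Expected counts were not whole in over 50% of the libraries for 35 members, against 29.3% of all features. These counts were shared among features by the counting program. For gene13921, gene27192, gene7552, gene11122, gene12818 and other members they were not whole in 100% of the 48 libraries. Where such reads come from near-identical copies, the values of those members are uncertain. Of the 100 features lower in apple at every month, chosen in the same way, 54 had such counts and 17 had more than 1 transcript. In 1 case, gene9607 and gene9608, a pair of members had consecutive identifiers.

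With the group means removed, the members varied together slightly more than other features over the 48 libraries. The median pairwise correlation was 0.13 among members, 0.07 among all features and 0.10 among the 100 lower in apple. This likeness was concentrated in 1 set of 23 members, found by average linkage at a correlation of 0.6 after the values had been seen. Pairwise correlations inside the set had a median of 0.74 and ranged from 0.42 to 0.96, while the other 77 members had a median of 0.11. The next set held 5 members, and 49 members stood alone. The members are measured in the same libraries and share their depth and lanes, so these correlations are a description with no test.

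The 23 included gene13968, gene13921, gene4276, gene7552, gene11507, gene25419, gene11122 and gene10069 among the members named here. They made up 12 of the first 20 members by minimum d. Beyond the list, 62 features that were not members also had a correlation over 0.8 with the mean of the set, as did 19 members, and together these were 0.846% of all features. The set was more variable than the rest, with a median SD within groups of 0.63, against 0.37 in the 77 others. A transcript with the identifier of the gene itself was listed for 4 members, against 1.41% of all features, and all 4 belonged to the set.

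The mean level of the 23, taken as log2(CPM + 0.5) minus the mean over the 48 libraries, separated the hosts less cleanly than that of the 77. In apple it averaged 0.37, 0.35, 0.27, 0.04 and 0.96 at 2, 3, 4, 5 and 6 months, and in hawthorn -0.57, -0.52, -0.36, -0.57 and -0.12. Of the 25 apple libraries, 14 lay below the highest hawthorn library and 3 below the hawthorn median. The lowest apple libraries were replicate 3 at 5 months with -0.95 and replicate 4 at 4 months with -0.90. The highest hawthorn libraries were replicates 4 and 5 at 6 months with 0.60 and 0.58. For the 77 others only 1 apple library lay below the highest hawthorn library, with levels of 0.32 ± 0.21 in apple and -0.35 ± 0.15 in hawthorn (SD, n = 25 and 23). Both sets were chosen for higher apple means in these libraries, and the 23 were grouped by shared variation. The separation of the hosts in their levels is therefore a description with no test. The heat map of the members shows the 23 varying as a block from library to library.

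**Figure D3:**
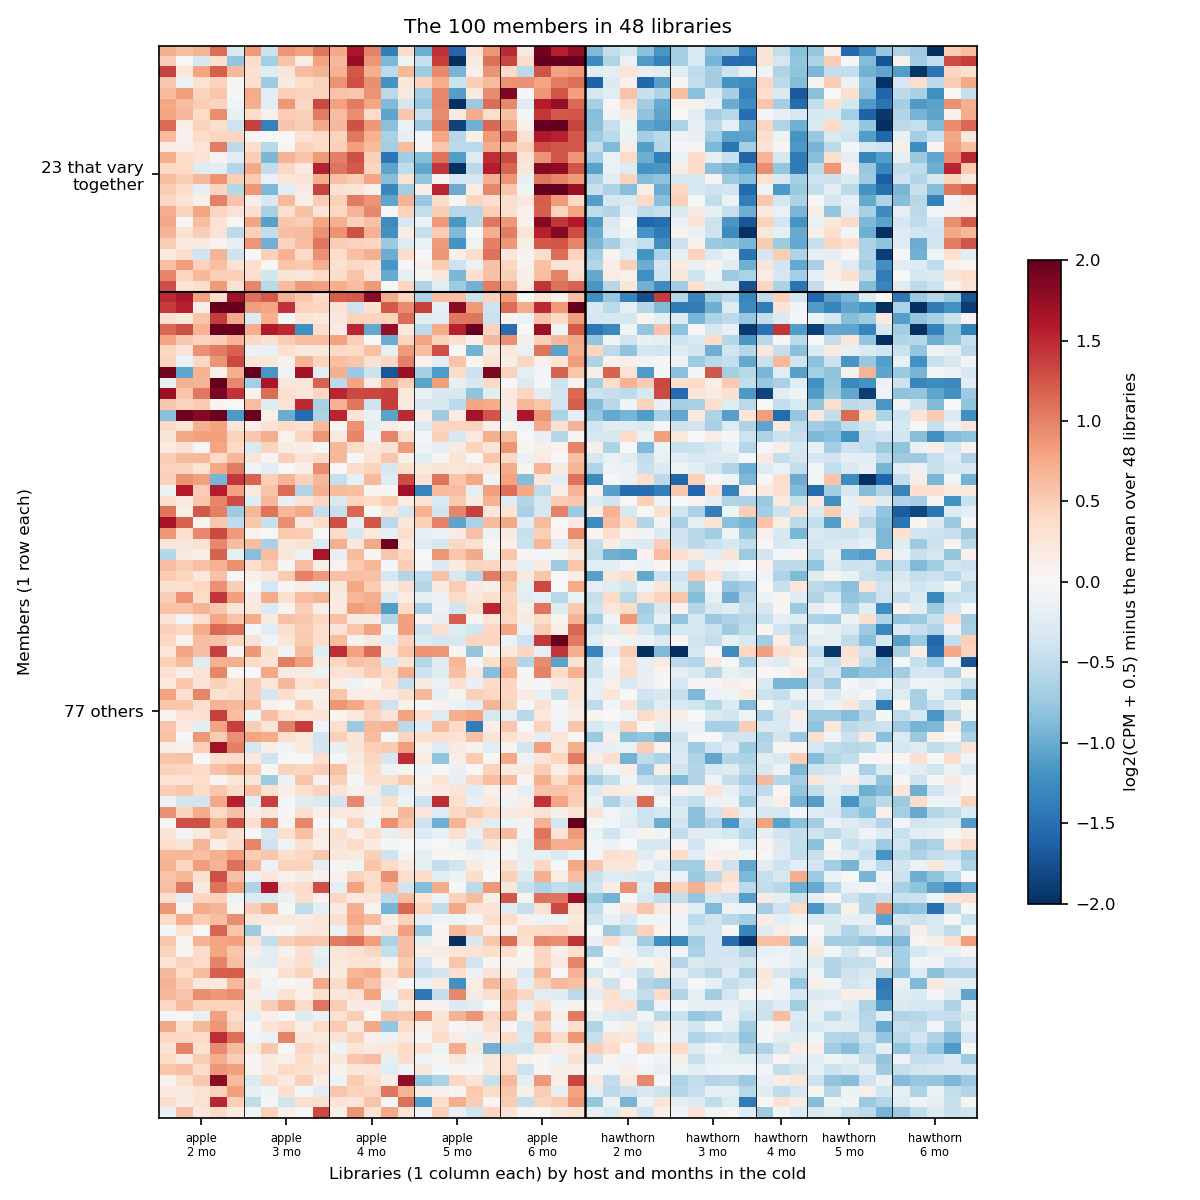
Level of each member (rows) in each of 48 libraries (columns), as log2(CPM + 0.5) minus the mean of the row, with colours limited to -2 and 2 and with apple libraries left of hawthorn libraries. The upper 23 rows change colour together from library to library, being dark red in 3 apple libraries of 6 months and blue in single apple libraries of 4 and 5 months, while the lower 77 rows are mostly red in apple and blue in hawthorn.

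**Figure D4:**
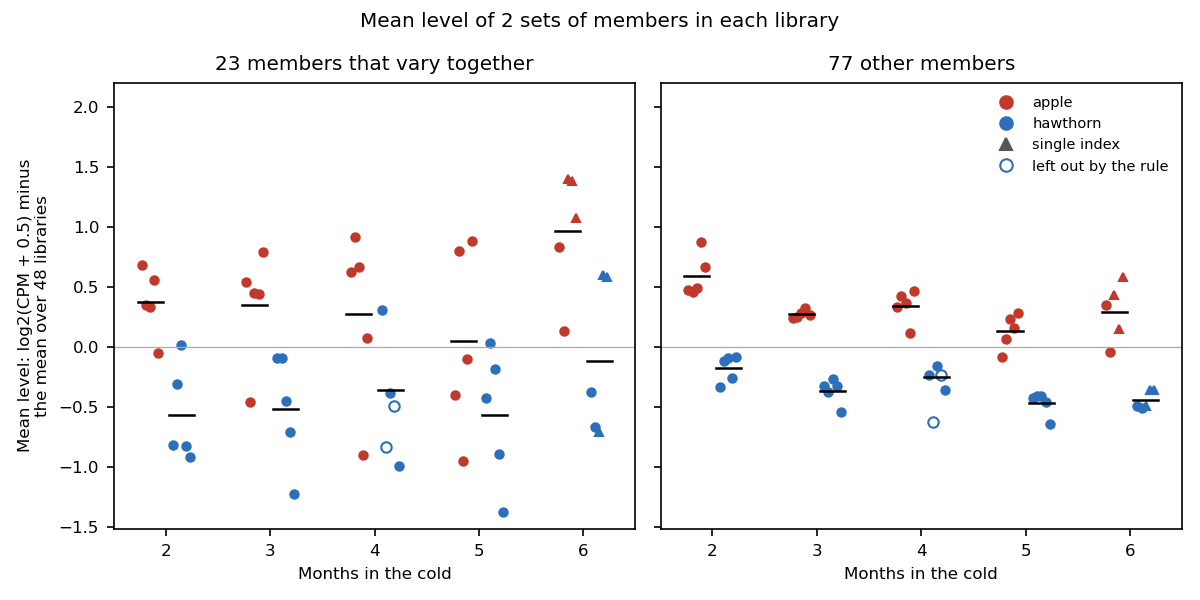
Mean level of the 23 members that vary together (left) and of the 77 others (right) by month, each point a library, with apple (red) left of hawthorn (blue), triangles for single-index libraries, open circles for the 2 libraries left out by the rule and bars for group means without them. For the 23, libraries range from -1.38 to 1.39 and the hosts overlap at each of the 5 months. For the 77 they overlap at no month, in libraries that the rule used to choose them.

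Change over the months, averaged over the hosts, was not used in choosing the members and could be tested. With edgeR's quasi-likelihood test and Benjamini-Hochberg adjustment over 14342 features, 35 of the 100 members changed over the months, against 41.4% of all features tested. The features tested include ones below the mean of 2 CPM that the rule required of members. Between 6 and 2 months, 11 members rose (19.8% of all features tested did) and 30 fell (18.9% of all features tested did). The median log2 change of the members was -0.21, against -0.03 over all features. At 3, 4 and 5 months the median difference from 2 months was -0.10, -0.17 and -0.25 for members and 0.01, 0.00 and -0.02 for all features. The months share their 2-month libraries, so these values are not independent of one another.

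The direction of the change divided along the set that varied together. Of the 11 members that rose, 10 were among the 23, and of the 30 that fell, none (0) was. The 23 were grouped by shared variation in these same libraries, so their 10 rises are not separate results. The median log2 change between 6 and 2 months was 0.66 for the 23, with 0.71 in apple and 0.53 in hawthorn, and -0.37 for the 77 others, with -0.36 in apple and -0.42 in hawthorn. Without the 6 single-index libraries the median change was 0.05 for the 23 and -0.46 for the 77 others. The plot of the change against abundance, from the fit to all 48 libraries, shows the called members of each set on opposite sides of 0, with gene12256 the exception.

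The largest rise was that of gene13921, by 1.68 ± 0.37 (log2, SE, adjusted p = 0.000449). At 6 months gene13921 had 30.5, 15.4, 61.9, 75.3 and 49.1 CPM in apple and 12.5, 7.10, 8.26, 29.9 and 31.6 CPM in hawthorn. At 2 months it had 16.8, 11.8, 9.35, 14.7 and 6.71 CPM in apple and 4.68, 7.60, 10.8, 5.12 and 4.35 CPM in hawthorn. The 3 highest apple values at 6 months were those of replicates 3, 4 and 5 and the 2 highest hawthorn values those of replicates 4 and 5, all libraries with a single index. The next rise, of gene7552, was 1.47 ± 0.39 (adjusted p = 0.00258). At 6 months gene7552 had 13.1, 8.28, 83.5, 91.3 and 30.5 CPM in apple and 4.45, 6.37, 4.63, 19.0 and 20.9 CPM in hawthorn. Its highest values were in the same 5 libraries. The member that rose outside the 23 was gene12256, by 0.66 ± 0.17 (adjusted p = 0.00177). At 6 months gene12256 had 12.9, 5.39, 11.6, 11.4 and 18.0 CPM in apple and 3.66, 3.73, 4.87, 6.34 and 6.52 CPM in hawthorn, against 6.80, 4.49, 7.18, 7.32 and 4.81 CPM in apple and 2.89, 2.46, 5.09, 4.07 and 3.51 CPM in hawthorn at 2 months. In apple 4 of its 5 libraries of 6 months were above all libraries of 2 months, while the hawthorn values of the months overlapped.

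Without the 6 single-index libraries no member (0) rose by the same test, against 15% of all features, and 1 member had an unadjusted p under 0.05 in that direction. That fit kept only replicates 1 and 2 of each host at 6 months, so a change was harder to call. With lane as a term 0 members rose, against 14.5% of all features, with 2 at an unadjusted p under 0.05. DESeq2, run on the 48 libraries with no such term, called 11 members higher at 6 months (20.9% of all features) and 31 lower (18.8%). The median change of the 23 was 0.05 without the single-index libraries and 0.32 with lane as a term. That of gene13921 was 0.71 (adjusted p = 0.242) without these libraries and 1.12 (adjusted p = 0.0915) with lane as a term. That of gene7552 was -0.12 (adjusted p = 0.849) without these libraries and 0.94 (adjusted p = 0.229) with lane as a term. Lower at 6 months were 28 members without these libraries, against 13.5% of all features, and 20 with lane as a term, against 11.8% of all features. The part of index type or lane in the rise was not tested beyond these fits.

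The largest falls were those of gene2385, by 1.63 on the log2 scale (SE 0.28, adjusted p = 8.13e-06), and of gene7235, by 1.38 (SE 0.28, adjusted p = 0.00013). At 6 months gene2385 had 2.49, 1.37, 1.16, 1.32 and 1.25 CPM in apple and 1.13, 0.969, 0.704, 0.545 and 0.767 CPM in hawthorn. At 2 months it had 3.33, 4.81, 2.41, 4.92 and 4.04 CPM in apple and 1.45, 2.30, 4.32, 1.66 and 4.76 CPM in hawthorn. In apple 1 library of 6 months lay above the lowest library of 2 months, and in hawthorn none (0) did. Members at the head of the list were among those that fell, gene2952 by 1.10 (SE 0.35, adjusted p = 0.0103) and gene19551 by 0.88 (SE 0.34, adjusted p = 0.0342). Without the single-index libraries neither was called, with adjusted p-values of 0.10 for gene2952 and 0.135 for gene19551. Only replicates 1 and 2 of each host at 6 months were left in that fit. With lane as a term gene19551 was not called (0.268). The steadiest member, gene2603, fell by 0.51 (SE 0.07, adjusted p = 2.03e-07), with 88.4 to 152 CPM in apple at 6 months, against 153 to 215 CPM in apple at 2 months. Its hawthorn libraries had 85.7 to 97.5 CPM at 6 months, against 106 to 129 CPM at 2 months.

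**Figure D5:**
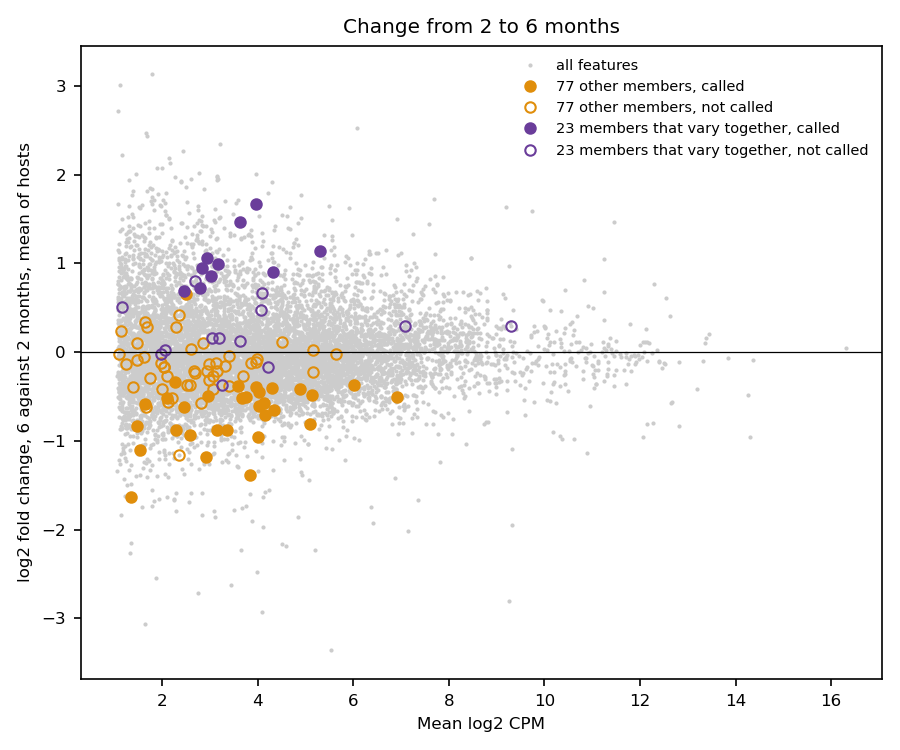
Log2 fold change between 6 and 2 months, averaged over the hosts, against mean log2 CPM. Grey points are tested features with a mean of at least 2 CPM. Orange points are the 77 other members and purple points the 23 that vary together. Members are filled where edgeR's quasi-likelihood test gave an adjusted p under 0.05. Of the filled members, 10 purple and 1 orange lie above 0, and the 30 below 0 are all orange.

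The libraries the rule had left out gave the one set of hawthorn values that had no part in the choice. Against the 5 apple libraries of 4 months, which the rule did use, hawthorn replicates 2 and 4 at 4 months gave a median difference of 0.75 over the members. Over all 9579 features the same difference was 0.69, so the members stood 0.05 above the rest, with 53 of the 100 above the median of all features. With the other 3 hawthorn libraries of 4 months, the members stood at 0.56, against 0.13 over all features, a distance of 0.44. Taken singly, replicate 2 placed the members 0.36 above all features and replicate 4 placed them 0.14 below (-0.14). The distance for both libraries together was 0.07 with TMM scaling and 0.07 with the deposited TPM. In these 2 libraries, whose levels follow transcript length unlike those of the other 48, the excess of apple in the members was close to that of features in general.

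Across months, lanes 2, 3, 6 and 7 held libraries of both hosts. Within a month, the hosts shared a lane number only at 6 months, in lane 7, with 4 apple and 3 hawthorn libraries. Of these, apple replicate 2 carried dual indexes and the others a single index. Only the lane number was read, so whether these libraries shared a run is not known. Among them d was above 0 in all 100 members, against 74.2% of all features, with a median of 0.62 among members and 0.19 among all features. These libraries are part of those that chose the members. In the edgeR fit on all 48 libraries the fitted host difference had a median of 0.59 over the members and 0.01 over all features. With lane as a term its median was 0.57 with 99 of the 100 members above 0, and the median SE was 0.23, against 0.13 without the term. The rule chose the members by host differences in these 48 libraries, so the fitted values are a description with no test. The median fitted difference of the 23 was 0.91 with lane as a term and 0.75 without it, and that of the 77 others 0.48 and 0.54. For gene2385 the fitted host difference was 0.02 with lane as a term (SE 0.32), against 0.63 without it, and for gene7235 it was 0.09 (SE 0.35), against 0.60 without it. Without the single-index libraries the median over the members was 0.57, and the part of index type in the host difference was not tested.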

How the data were processed

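The deposited expected counts, TPM values and transcript lengths are columns of RSEM gene tables, per the file headers. STAR alignment to the genome of a related fly, R. zephyria, and RSEM counting, which divides ambiguous reads among features, were named in the submitters' processing notes. For tool versions, genome build and annotation the sources used here give nothing. Lane and index type were read from run information left by the authors in the deposited data. A hawthorn library of 6 months whose title adds a letter B to its number was taken as replicate 3.

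CPM were computed from file totals of the deposited expected counts, and d with a pseudocount of 0.5. For the month tests, expected counts were rounded, features kept by filterByExpr of edgeR 4.0.16 in R 4.3.3 (14342 features), libraries scaled by TMM and a robust quasi-likelihood model fitted to 48 libraries with 1 mean per group. Adjustment was by Benjamini and Hochberg's method over all features tested, and an adjusted p under 0.05 was called. DESeq2 1.42.0 was an alternative. The code was tested on simulated counts. Correlations used residuals from group means over 48 libraries.

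The members, lists and orderings were chosen with earlier results of these data known. Identifiers were named at the extremes of each ordering (minimum d, level, change between 6 and 2 months, spread, length, transcripts, share of non-whole counts, gap between hosts) and at the median minimum d, at most 2 in each direction. Members tied in transcripts or non-whole counts are mentioned where another ordering named them. Labels do not say whether libraries of a group came from separate cohorts, so p-values measure the spread between pools. Same-numbered libraries of different groups did not deviate together (median correlation 0.006 over 207 pairs, against -0.007 over 828 pairs of unlike numbers), so numbers were not treated as pairs. Count depth limits the precision of members near 2 CPM. Host differences of the members carry no test, since they chose the members.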

Additional observations from a re-analysis of the deposited data

Results flagged for a closer look

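Of 99 groups of 5 libraries examined, 10 had a highest or lowest library far from the other 4 by Dixon's criterion (gap over range above 0.71). Chance gives about 1 in 20 for independent, normally distributed values. The groups share libraries and members, so nothing is read from their number. For the mean level of the 100 members, apple replicate 4 at 2 months was high at 0.80 (the others 0.43 to 0.52), apple replicate 2 at 3 months low at 0.084 (0.31 to 0.38) and apple replicate 4 at 4 months low at -0.12 (0.37 to 0.54). The mean level of the 23 members that vary together was low in apple replicate 2 at 3 months, at -0.46 (0.44 to 0.79). The mean level of the 77 others was low in hawthorn replicate 5 at 5 months, at -0.64 (-0.46 to -0.41).

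Among single members, gene13968 had 10.1 CPM in apple replicate 2 at 3 months (24.3 to 29.2 in the others). The hawthorn library with 6.54 CPM of gene2952 was replicate 5 at 2 months (0.276 to 1.08 in the others). The value of 0.143 CPM for gene19551 was that of hawthorn replicate 5 at 5 months (1.03 to 1.34 in the others). The value of gene2385 in apple replicate 1 at 6 months was 2.49 CPM (1.16 to 1.37 in the others). In apple replicate 4 at 2 months gene7235 had 56.6 CPM (11.0 to 24.2 in the others).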

How the results depend on the processing

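Of the 100 members, 66 were again chosen with TMM-scaled CPM, 65 with DESeq2 size factors, 60 with deposited TPM, 48 with group medians and 73 to 100 without each of the 48 libraries in turn. Under other pseudocounts, other minimum levels or all 50 libraries at least 71 were. Group medians gave a minimum d at or below 0 for gene10069 (-0.1302), gene2385 (-0.0047), gene7235 (-0.0998), gene2772 (-0.0672) and gene11507 (-0.0003), and all 50 libraries gave -0.0712 for gene25292. Leave-one-out ranges reached below 0 for gene12699 (-0.0651 to 0.4903), gene2772 (-0.3046 to 0.6618) and gene10069 (-0.1567 to 0.4984), and for none of the other members named by the orderings.

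Members higher at 6 than at 2 months numbered 11 in the reported fit (19.8% of all features) and 0 with lane as a term (14.5%). They numbered 0 without the single-index libraries (15%), where gene7552 changed by -0.121. That last fit kept only replicates 1 and 2 of each host at 6 months. All 6 single-index libraries ran in lane 7, and the cause was not tested. Leave-one-out gave 9 to 12 members higher (2676 to 2905 of all features), 26 to 33 lower (2396 to 2707) and 33 to 41 changed over the months (5493 to 6147). These fits tested 14283 to 14705 features. With a replicate block 11 members were higher, 31 lower and 35 changed, beside 2839, 2692 and 5886 of 14342 features tested. The block changed no call between 6 and 2 months of a member named by the orderings. Features lower at 6 months numbered 1694 with lane as a term, against 2710 without it. TMM scaling moved the number of members without overlap most at 2 months, to 14 (4.66% of all features) from 43 (21.6% of all features).

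The depth limits the scarce members most, since 62 averaged under 10 CPM. Lanes, shared by both hosts within a month only at 6 months, limit what the host difference can show. The absence of names leaves the members without a function.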
